A study of Homo sapiens with 6 samples.

Results

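The subject is 10 integrin subunit genes, 5 alpha chains (ITGA2, ITGA3, ITGA5, ITGA6 and ITGAV) and 5 beta chains (ITGB1, ITGB4, ITGB5, ITGB6 and ITGB8). They were taken by symbol from a table of 12659 genes, and all 10 were found there. Their levels were compared between NCI-H1650, a human line established from lung adenocarcinoma that carries an EGFR deletion, and its derivative NCI-H1650Re. The labels tag both with the same cell line and call the first pre-LUAD and the second post-SCLC, the state after transformation to small cell lung cancer. They name no agent, dose or passage for the derivation, so each state is represented by a single line. Polyadenylated RNA of each line was sequenced in 3 libraries, 6 in all. Nothing in the labels tells whether the 3 libraries of a line were separate cultures, and p-values then reflect only the spread between these libraries, which may be technical.

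Integrins are transmembrane receptors made of an alpha and a beta chain, which bind matrix outside the cell and actin or keratin filaments inside it. The beta1 chain can pair with each of the alpha chains named here and serves collagen (alpha2beta1), laminin (alpha3beta1 and alpha6beta1) and fibronectin (alpha5beta1). The beta4 chain pairs only with alpha6, binds laminin and anchors epithelial cells through hemidesmosomes. The alpha-v chain pairs with several beta chains: alpha-v beta5 binds vitronectin, and alpha-v beta6 and alpha-v beta8 release active TGF-beta from its latent complex.

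In NCI-H1650Re the laminin-binding alpha3 and alpha6 and the alpha-v partners beta6 and beta8 were lower, while the collagen-binding alpha2 and the vitronectin-binding beta5 were higher. ITGB6 fell from 2.49 ± 0.503 to 0.273 ± 0.275 FPKM (mean ± SD, n = 3 libraries per line), ITGB8 from 13.0 ± 2.39 to 5.11 ± 0.488, ITGA6 from 203 ± 18.8 to 106 ± 13.6 and ITGA3 from 229.6 ± 19.6 to 154 ± 16.8. ITGA2 rose from 9.75 ± 1.39 to 14.3 ± 0.683 and ITGB5 from 41.5 ± 1.33 to 52.9 ± 2.09. ITGB1, ITGB4, ITGA5 and ITGAV did not pass the test. FPKM counts fragments relative to transcript length and to the library's total, so levels of different genes can be set side by side. The test was limma on log2(FPKM + 1) over the 11764 genes averaging 1 FPKM or more in at least 1 line, and a gene was called changed at a Benjamini-Hochberg adjusted p under 0.05.

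All 10 subunits passed the filter on low values, ITGB6 only through NCI-H1650, the line where it was higher. Of them 2 rose, 4 fell and 4 did not pass, so 6 of 10 (60.0%) were called, against 30.5% of all genes tested. The share called higher over all genes was 16.6% and the share called lower 13.9%. The libraries of the lines did not overlap for the 6 subunits called, and did so for the other 4. Over all genes tested the lines did not overlap for 47.2%. The median log2 change of the subunits was -0.28, beside 0.03 over all genes tested. In the authors' deposited table, from the same libraries, the 6 subunits had the same signs, with log2 fold changes from -3.22 for ITGB6 to 0.53 for ITGA2. The largest FDR among the 6 was 0.0209, for ITGB5. The authors marked ITGB6 and ITGB8 as down, and ITGA2, ITGA3, ITGA6 and ITGB5 as normal. With both replicate 3 libraries left out, 2 subunits rose and 5 fell, ITGAV being added. With a filter at 5 FPKM ITGB6 was not tested, and 2 of 9 subunits rose and 3 fell, when 33.7% of all genes passed.

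**Figure D1:**
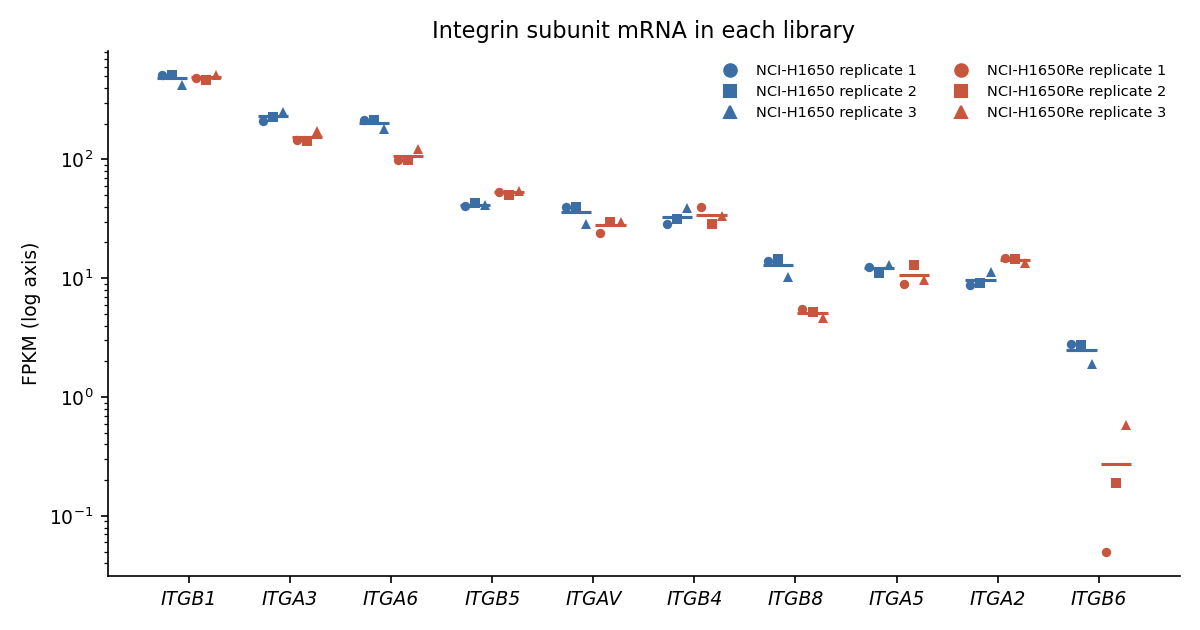
FPKM (log axis) of the 10 integrin subunits in each of the 6 libraries, blue for NCI-H1650 and red for NCI-H1650Re, with symbols for replicates 1, 2 and 3 and bars for the means. ITGB1 sits between 426 and 517 in both lines, and ITGB6 is at 1.91 or above in the parental libraries and at 0.58 or below in the others.

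**Figure D2:**
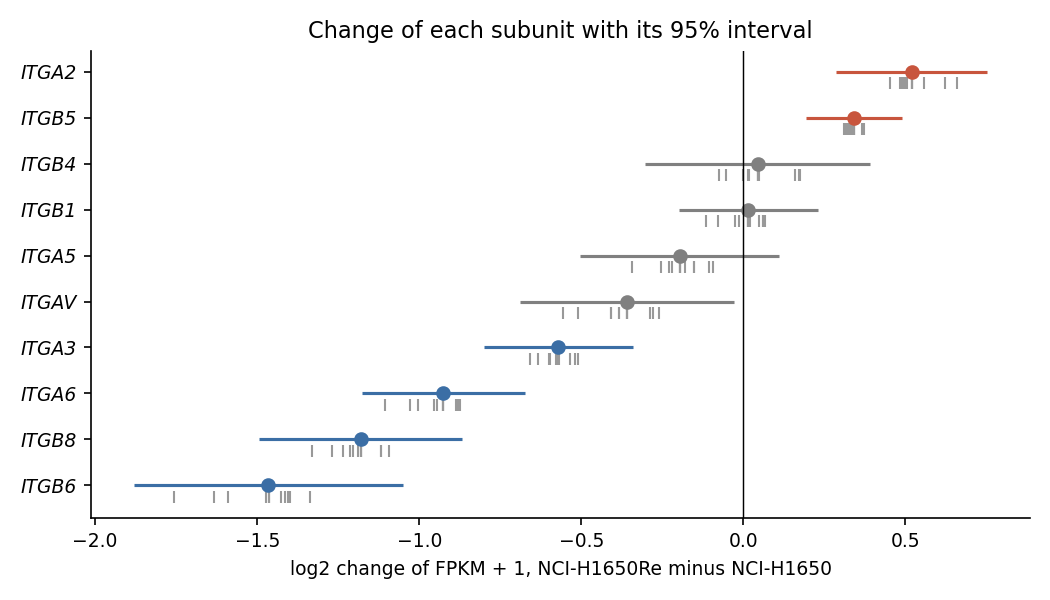
Log2 change of FPKM + 1 of each subunit (points), NCI-H1650Re minus NCI-H1650, with its 95% interval from limma (lines); coloured points passed the adjusted threshold and grey points did not. Grey ticks give the change under the alternative settings other than the pseudocount of 0.1; for the 6 coloured subunits they stay on the same side of 0.

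The 4 promoters below are those of the 3 subunits with the largest falls and of the subunit with the largest rise. Each is the 250 bases before the RefSeq start site (GRCh38.p14), 5′ to 3′ on the strand of the gene. Capitals mark matches to any of 5 motifs searched on both strands: the AP-1 motif TGANTCA, the GC box GGGCGG, the TEAD motif GGAATG, the E2-box CACCTG and the hypoxia response core ACGTG. The ITGB6 stretch lies on the minus strand at chr2:160200273-160200522, and that of ITGB8 on the plus strand at chr7:20330650-20330899. The ITGA6 stretch is at chr2:172427086-172427335 and that of ITGA2 at chr5:52989102-52989351, both on the plus strand.
ITGB6: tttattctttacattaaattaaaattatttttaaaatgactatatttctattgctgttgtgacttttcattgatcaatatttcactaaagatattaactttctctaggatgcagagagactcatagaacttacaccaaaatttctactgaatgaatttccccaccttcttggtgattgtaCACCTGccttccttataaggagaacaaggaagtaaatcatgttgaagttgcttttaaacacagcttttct
ITGB8: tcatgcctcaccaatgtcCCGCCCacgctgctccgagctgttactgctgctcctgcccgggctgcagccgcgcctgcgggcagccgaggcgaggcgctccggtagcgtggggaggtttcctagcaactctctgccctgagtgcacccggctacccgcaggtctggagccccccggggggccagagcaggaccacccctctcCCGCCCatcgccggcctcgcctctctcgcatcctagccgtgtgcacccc
ITGA6: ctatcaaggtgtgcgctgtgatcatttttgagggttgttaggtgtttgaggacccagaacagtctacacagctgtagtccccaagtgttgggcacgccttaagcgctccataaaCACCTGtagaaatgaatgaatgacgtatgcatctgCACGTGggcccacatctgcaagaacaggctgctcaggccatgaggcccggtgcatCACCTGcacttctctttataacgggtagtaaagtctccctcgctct
ITGA2: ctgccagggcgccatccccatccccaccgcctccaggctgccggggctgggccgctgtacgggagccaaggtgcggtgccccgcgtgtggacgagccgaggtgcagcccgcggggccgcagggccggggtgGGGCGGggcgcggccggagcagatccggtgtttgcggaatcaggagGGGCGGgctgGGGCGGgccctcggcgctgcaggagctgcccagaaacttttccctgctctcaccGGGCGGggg

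The ITGB6 promoter had a GC content of 30% and no CpG dinucleotide, below the lower quartile of 46.0% over the 27305 promoters of the table. Its single capital stretch is an E2-box starting 70 bases before the start site. The ITGA6 stretch (50.8% GC) held 2 E2-boxes, at -136 and -46, and a palindromic hypoxia response core that matched on both strands. The ITGB8 (71.2% GC) and ITGA2 (76.4%) stretches held only GC boxes, 2 and 4 of them. An E2-box was present in 17.5% of all promoters, the hypoxia response core in 18.7%, a GC box in 42.3%, the TEAD motif in 11.9% and the AP-1 motif in 6.60%. A match is a string of letters, not a measured binding site, and the start site used by these cells was not measured. Promoters of 8 of the 10 subunits were matched by symbol in the RefSeq table. TEAD matches occurred in those of ITGA5 and ITGB1, which did not pass the test, and ITGAV had no match to any of the 5 motifs.

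The subunit genes are spread over several chromosomes. On GRCh38 (GENCODE release 29) chromosome 2 holds ITGB6 (160099666 to 160200313, minus strand), ITGA6 (172427354 to 172506282, plus) and ITGAV (186590065 to 186680901, plus). Chromosome 17 holds ITGA3 (50055968 to 50090481, plus) and ITGB4 (75721328 to 75757818, plus). ITGB8 is on chromosome 7 (20330702 to 20415754, plus), ITGA2 on chromosome 5 (52989326 to 53094779, plus), ITGB5 on chromosome 3 (124761948 to 124901418, minus) and ITGA5 on chromosome 12 (54395261 to 54419460, minus). Of the 24 nearest tested genes of each, the number that passed ran from 4, around ITGA6 and ITGB5, to 13, around ITGB1, with 7 around ITGB6 and ITGA2, 10 around ITGAV and 12 around ITGB8; the share over all genes was 30.5%.

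The levels spanned a wide range within each line. ITGB1, the common beta chain, was the highest in both, followed by ITGA3, ITGA6 and ITGB5, and ITGB6 was the lowest. In NCI-H1650 the libraries of ITGA3 and ITGA6 overlapped in FPKM, as did those of ITGAV and ITGB4, ITGB8 and ITGA5, and ITGA5 and ITGA2. In NCI-H1650Re ITGA3 stood above ITGA6 without overlap (lowest 143, highest 122 FPKM), and the only neighbours in the order that overlapped were ITGB4 and ITGAV. ITGA2 moved from the ninth place to the seventh, and ITGB8 from the seventh to the ninth.

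Among the laminin receptors, ITGA6, the alpha chain shared by alpha6beta1 and the hemidesmosomal alpha6beta4, had 213, 214 and 181 FPKM in NCI-H1650 (in the order of replicates 1, 2 and 3, as below) and 98.4, 98.6 and 122 in NCI-H1650Re. Every NCI-H1650Re library was below every parental library. The log2 change was -0.93 (SE 0.11, limma adjusted p = 0.00124), a level 52.5% of the parental mean. ITGA3, the alpha chain of alpha3beta1, was at 210.0, 229.6 and 249 FPKM in NCI-H1650 and at 146, 143 and 174 in NCI-H1650Re. Again the lines did not overlap, and the log2 change was -0.57 (SE 0.10, limma adjusted p = 0.00522). ITGB4, the hemidesmosomal beta chain that signals through an unusually long cytoplasmic tail, was at 28.4, 31.4 and 39.2 FPKM in NCI-H1650 and at 40.1, 28.5 and 33.6 in NCI-H1650Re. Its libraries interleaved, with a log2 change of 0.04 and a 95% interval from -0.30 to 0.39 (limma adjusted p = 0.843). The sign of this small change turned with quantile normalization (-0.002). FPKM per gene does not separate the A and B splice forms of ITGA6 or ITGA3. In a bulk library fewer cells with a transcript and less of it per cell cannot be told apart.

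ITGB1 was at 516, 515 and 426 FPKM in NCI-H1650 and at 485, 467 and 517 in NCI-H1650Re. The lines overlapped, with a log2 change of 0.01 and a 95% interval from -0.20 to 0.23 (limma adjusted p = 0.916). The sign turned without NCI-H1650 replicate 3 (-0.08), and without both replicate 3 libraries the change was -0.12 (limma adjusted p = 0.178). ITGB1 lies on chromosome 10, 32900319 to 33005792 (GRCh38, GENCODE release 29). Of its 24 nearest tested genes, 18 were higher in NCI-H1650Re, with a median log2 change of 0.25, and 13 passed the test. For the other 9 subunits the median of the 24 neighbours ran from -0.055 (ITGB5) to 0.111 (ITGB4).

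Of the collagen and fibronectin receptors, ITGA2, the alpha chain of the collagen receptor alpha2beta1, was at 8.74, 9.18 and 11.3 FPKM in NCI-H1650 and at 14.8, 14.7 and 13.6 in NCI-H1650Re. All 3 derived libraries were above the parental ones, 1.47-fold in the mean (log2 change 0.52, SE 0.10, limma adjusted p = 0.00792). ITGA5, the alpha chain of the fibronectin receptor alpha5beta1, was at 12.4, 11.1 and 12.9 FPKM in NCI-H1650 and at 8.92, 13.03 and 9.74 in NCI-H1650Re. Replicate 2 of NCI-H1650Re lay above all parental libraries and the others below them. Its log2 change of -0.20 had a 95% interval from -0.50 to 0.11 (limma adjusted p = 0.293).

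ITGAV, the alpha chain of the vitronectin and TGF-beta-activating receptors, was at 39.6, 40.1 and 28.8 FPKM in NCI-H1650 and at 24.0, 29.8 and 29.7 in NCI-H1650Re. Replicate 3 of NCI-H1650 fell within the range of NCI-H1650Re. The log2 change was -0.36 (95% interval from -0.69 to -0.03, limma adjusted p = 0.0938). It passed without NCI-H1650 replicate 3 (log2 change -0.51, limma adjusted p = 0.0187) and without both replicate 3 libraries (-0.56, adjusted p = 0.00461). In the authors' deposited table its log2 fold change was -0.40 with an FDR of 0.0271.

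ITGB5, ITGB6 and ITGB8, partners of alpha-v, did not all go in the same direction. ITGB5 was at 40.4, 43.0 and 41.1 FPKM in NCI-H1650 and at 53.7, 50.5 and 54.4 in NCI-H1650Re, without overlap (log2 change 0.34, SE 0.06, limma adjusted p = 0.00714). ITGB8 was at 14.1, 14.6 and 10.2 FPKM in NCI-H1650 and at 5.56, 5.17 and 4.59 in NCI-H1650Re, on 1520 to 2745 and 726 to 988 deposited read counts per library. It fell 2.54-fold in the mean (log2 change -1.18, SE 0.13, limma adjusted p = 0.00112). ITGB6, an epithelial beta chain, was at 2.80, 2.76 and 1.91 FPKM in NCI-H1650 and at 0.05, 0.19 and 0.58 in NCI-H1650Re. The parental values rested on 292, 250 and 152 deposited counts and the derived ones on 5, 19 and 49. The mean was 9.11-fold lower, and 20.8-fold lower without NCI-H1650Re replicate 3, while the log2 change on FPKM + 1 was -1.47 (SE 0.18, limma adjusted p = 0.00139). That scale understates a change at so low a level: with a pseudocount of 0.1 the log2 change was -3.05 (limma adjusted p = 0.00493). Replicate 3 of NCI-H1650Re held the most ITGB6 of its line and replicate 3 of NCI-H1650 the least of its own.

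ITGB5, ITGB6 and ITGB8 together summed to 56.9 ± 3.55 FPKM in the parental line and to 58.2 ± 2.08 in the derived line, while the makeup of the sum shifted. ITGB5 was 73.0% ± 3.68 of this sum in NCI-H1650 and 90.8% ± 0.495 in NCI-H1650Re, ITGB8 22.7% ± 3.01 and 8.78% ± 0.931, and ITGB6 4.35% ± 0.681 and 0.466% ± 0.458 (SD, n = 3 libraries). These are shares of mRNA and not of protein at the cell surface. ITGB1, which can also pair with alpha-v, was not part of this sum.

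Ratios of subunit levels, some of them between chains that do not pair with each other, were formed within each library. This removes any scaling of the whole library. ITGA6 over ITGB4 was 7.48, 6.82 and 4.61 in NCI-H1650 and 2.46, 3.46 and 3.63 in NCI-H1650Re, that is, ITGA6 was in excess of its hemidesmosomal partner in every library and by less in NCI-H1650Re. ITGB4 over ITGB1 was 0.0693 ± 0.0198 and 0.0696 ± 0.0114 (SD, n = 3) and overlapped between lines. ITGA3 over ITGA6 was 1.15 ± 0.206 and 1.45 ± 0.0326. ITGB8 over ITGB5 was 0.312 ± 0.0553 and 0.0968 ± 0.0107, and ITGB6 over ITGB5 was 0.0600 ± 0.012 and 0.00512 ± 0.00501, the derived libraries standing at 0.000931, 0.00376 and 0.0107. ITGAV over the sum of ITGB5, ITGB6 and ITGB8 was 0.632 ± 0.0799 and 0.479 ± 0.0665. The 5 alpha chains summed to 490.2 ± 11.9 FPKM in the parental line and to 314 ± 30.7 in the derived line, and their ratio to ITGB1 was 0.936, 0.978 and 1.13 in the parental libraries and 0.603, 0.641 and 0.675 in the derived ones. Of the 7 ratios, 6 did not overlap between lines. The gap was narrow for ITGAV over the beta sum (lowest parental library 0.541, highest derived 0.533). It was also narrow for ITGA3 over ITGA6 (highest parental library 1.38, lowest derived 1.42). With 3 libraries a side the smallest p of an exact permutation test (two-sided) is 0.1, which those 6 reached (0.117 after Benjamini-Hochberg adjustment over the 7); for ITGB4 over ITGB1 the exact p was 0.9.

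**Figure D3:**
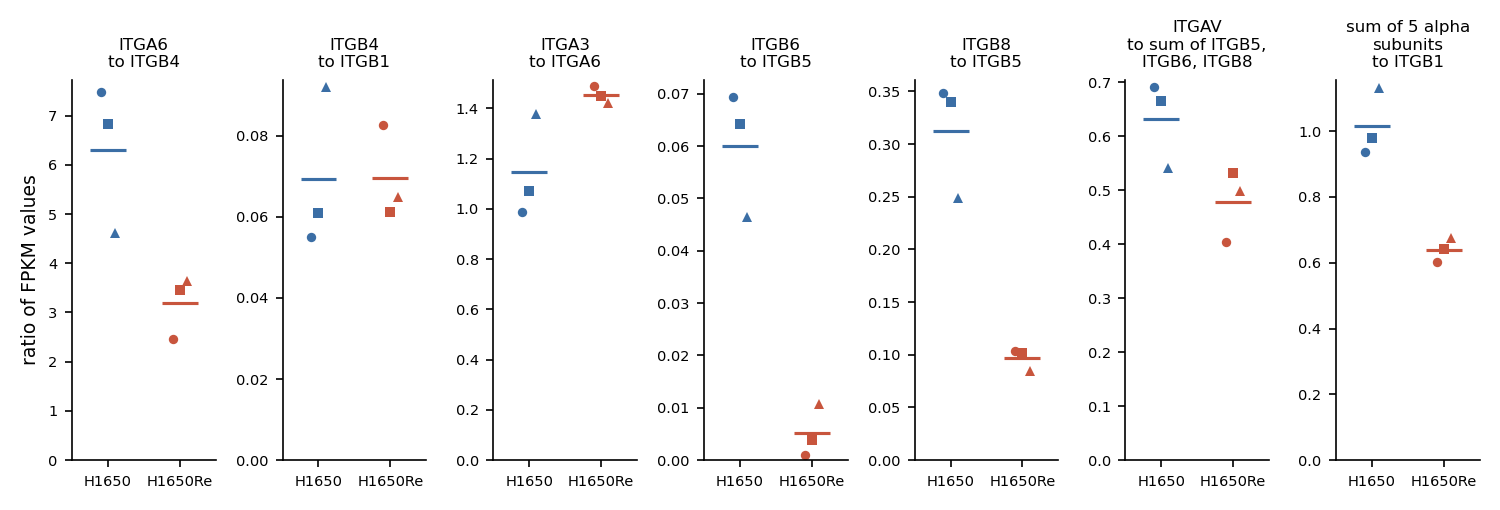
Ratios of FPKM values of integrin subunits in each library, blue for NCI-H1650 and red for NCI-H1650Re. Circles, squares and triangles are replicates 1, 2 and 3 and bars are the means. Each panel has its own axis from 0. The lines are apart in 6 panels and overlap for ITGB4 to ITGB1.

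Of 16 other integrin subunits listed, 6 were in the deposited values and 3 passed the filter. ITGA4, the alpha chain of the fibronectin and VCAM1 receptor alpha4beta1, was at 57.0, 56.0 and 39.4 FPKM in NCI-H1650 and at 21.7, 25.9 and 29.5 in NCI-H1650Re. It fell with a log2 change of -0.95 (SE 0.16, limma adjusted p = 0.00504), and in the parental line its mean of 50.8 FPKM was above those of ITGAV and ITGA5. ITGAE was at 2.66 ± 0.284 and 3.22 ± 0.454, and the leukocyte chain ITGB2 at 8.52 ± 0.903 and 9.47 ± 0.818; neither passed. ITGA2B, ITGA7 and ITGA9 had means under 1 FPKM in both lines. The other 10 subunits, among them ITGA1 and ITGB3, were not analysed here.

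Laminin and hemidesmosome partners of ITGA6, ITGA3 and ITGB4 had 10 of 12 listed genes tested: 1 rose, 1 fell and 8 missed the threshold (median log2 change -0.21). Of all genes tested 16.6% rose and 13.9% fell. COL17A1, the transmembrane collagen that sits beside alpha6beta4 in hemidesmosomes, was at 146.5, 151 and 141 FPKM in NCI-H1650 and at 12.4, 21.8 and 48.2 in NCI-H1650Re (log2 change -2.57, SE 0.40, limma adjusted p = 0.0034). LAMA4, a laminin alpha chain, rose from 2.30 ± 0.375 to 6.29 ± 2.17 FPKM (limma adjusted p = 0.00938). The most abundant laminin chains, LAMA5 at 102 ± 9.56 and 88.8 ± 3.23 and LAMB1 at 99.5 ± 4.94 and 87.7 ± 7.28, did not pass. LAMA5 passed without NCI-H1650 replicate 1 (limma adjusted p = 0.0411) and LAMB1 without NCI-H1650Re replicate 3 (0.0276) and without both replicate 3 libraries (0.0192). Without NCI-H1650Re replicate 3, 7 of the list passed, when 38.1% of all genes did, and without both replicate 3 libraries 1 rose and 5 fell, when 43.2% of all genes passed. CD151, the tetraspanin partner of laminin-binding integrins, and PLEC, the plectin that ties beta4 to keratin, were not analysed here.

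The ligands with fibronectin, collagen or RGD motifs had 17 of 20 tested: 4 rose, 3 fell and 10 missed the threshold (median log2 change 0.18). The shares over all genes were 16.6% for rises and 13.9% for falls. The fibril-associated collagen gene COL12A1 rose from 4.86 ± 0.338 to 33.3 ± 4.48 FPKM, VTN, which encodes vitronectin, from 0.103 ± 0.0850 to 1.78 ± 0.647, and the microfibril protein FBN1 from 11.4 ± 1.47 to 25 ± 6.76. VTN was low in both lines, at 1, 4 and 7 deposited counts in NCI-H1650 and 64, 117 and 52 in NCI-H1650Re. It passed the filter only through NCI-H1650Re. NPNT, which encodes the integrin ligand nephronectin, fell from 2.81 ± 1.34 to 0.553 ± 0.176 and passed the filter only through NCI-H1650. The other falls, named after their values were seen, were TNC, tenascin C, at 97.3 ± 5.49 and 56.3 ± 16.0, and the integrin-binding protease gene ADAM9, at 85.6 ± 7.91 and 62.1 ± 4.48. CTGF rose from 6.05 ± 0.531 to 15.3 ± 7.44 with an adjusted p of 0.0467, a call lost without any 1 library other than NCI-H1650Re replicate 1 (limma adjusted p from 0.0794 to 0.153), with median-of-ratios scaling (0.0551), quantile normalization (0.0506) or no variance trend (0.0521), and, at 0.05, with every gene tested. FN1, fibronectin itself, was at 79.1, 67.9 and 92.1 FPKM in NCI-H1650 and at 62.7, 114 and 132 in NCI-H1650Re (limma adjusted p = 0.389), and passed without NCI-H1650Re replicate 1 (log2 change 0.63, limma adjusted p = 0.0157). CYR61, a matricellular ligand related to CTGF, was at 70.6 ± 7.72 and 134 ± 49.9 (limma adjusted p = 0.0508) and also passed without that library (0.000681) and with a filter at 5 FPKM (0.0459). COL5A1, a fibrillar collagen chain, was at 89.7 ± 15.4 and 71.7 ± 4.07 and did not pass (log2 change -0.30), but did so without NCI-H1650 replicate 3 (-0.45, limma adjusted p = 0.0101) and without both replicate 3 libraries (-0.48, 0.00275). Without both replicate 3 libraries 6 of the list rose and 5 fell, when 43.2% of all genes passed.

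Of 12 tested genes around latent TGF-beta, the cargo of alpha-v beta6 and alpha-v beta8, 2 rose, none fell and 10 did not pass (median log2 change 0.07). Over all genes 16.6% rose and 13.9% fell. TGFB1 was at 34.3 ± 2.96 and 44.2 ± 1.05 FPKM (limma adjusted p = 0.0118) and LTBP4, a latent TGF-beta binding protein, at 6.93 ± 0.867 and 9.50 ± 0.615 (0.018). Both calls were lost without NCI-H1650Re replicate 2 (limma adjusted p = 0.0539 and 0.0776), where 0 of the list passed. The receptor TGFBR2, the most abundant of the list, was at 69.9 ± 1.31 and 60.3 ± 8.21 and did not pass, nor did LTBP3, at 30.4 ± 4.69 and 23.3 ± 2.26. TGFBR2 passed without NCI-H1650Re replicate 1 (log2 change -0.32, limma adjusted p = 0.0186). LTBP3 passed with replicate 1 of NCI-H1650 left out (limma adjusted p = 0.0232), with replicate 3 of NCI-H1650Re left out (0.0293), without both replicate 3 libraries (0.0365) and with quantile normalization (0.0444), each time downward. Leaving out NCI-H1650Re replicate 3 gave 5 calls in the list (38.1% of all genes passed), and leaving out both replicate 3 libraries gave 3 rises and 2 falls (43.2%).

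The proteins that activate integrins or link them to actin were mostly level or higher: of 25 tested, 11 rose, 2 fell and 12 did not pass (median log2 change 0.35). Over all genes tested, 16.6% rose and 13.9% fell. The scaffold NEDD9 rose from 1.74 ± 0.283 to 7.75 ± 1.92 FPKM (log2 change 1.66, limma adjusted p = 0.000645) and TGFB1I1, the paxillin relative HIC-5, from 10.1 ± 0.459 to 23.2 ± 3.82. The focal adhesion protein ZYX rose from 27.0 ± 2.04 to 50.6 ± 6.32 and the actin crosslinker ACTN1 from 96.6 ± 6.66 to 153 ± 3.78. BCAR1, the scaffold p130Cas and a relative of NEDD9, fell from 63.3 ± 10.8 to 38.6 ± 2.81 (limma adjusted p = 0.00596). The other fall, TNS3, a tensin, was from 48.1 ± 1.86 to 37.2 ± 5.98 FPKM (limma adjusted p = 0.0383). It is named after its values were seen. Only the fall of BCAR1 remained with the replicate block, without any 1 library other than NCI-H1650Re replicate 1, and without both replicate 3 libraries. Rises in the list numbered 8 without NCI-H1650 replicate 2, when 15.2% of all genes passed, and at most 11 under any alternative. The most abundant members included FLNA, which rose from 175 ± 2.89 to 230.5 ± 9.64, and ACTN4, at 358 ± 16.9 and 363 ± 21.9, which did not pass and whose small change took either sign across the alternatives. Among 18 tested inhibitors and traffic regulators of integrins, DOK1, an adaptor that competes with talin for beta tails, rose from 2.55 ± 0.303 to 5.39 ± 1.20 FPKM (limma adjusted p = 0.0057), and the other 17 did not pass. The clathrin adaptor AP2M1, the most abundant of them, was at 191 ± 6.58 and 199 ± 1.17. The count of 1 became 2 with replicate 3 of NCI-H1650 left out, 4 with that of NCI-H1650Re, and 3 rises with 3 falls without both, while the share of all genes called was 26.9%, 38.1% and 43.2%.

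Surface proteins that associate with integrins in the membrane were mostly lower: of 15 tested, 10 fell, 1 rose and 4 did not pass (median log2 change -0.33). Among all genes tested 13.9% fell and 16.6% rose. The tetraspanin CD9 fell from 215 ± 11.1 to 137 ± 17.4 FPKM, the tetraspanin CD82 from 23.1 ± 5.53 to 12.4 ± 2.87, CAV1, the caveolar coat protein, from 165 ± 15.7 to 99.1 ± 5.26 and EGFR from 73.4 ± 6.23 to 48.6 ± 6.84. SLC3A2, the CD98 heavy chain that binds beta tails and carries amino acid transporters, rose from 113 ± 16.1 to 303 ± 8.26 (log2 change 1.43, limma adjusted p = 0.000227). Fewer passed without single libraries: 6 fell with replicate 1 of NCI-H1650 left out, 3 with its replicate 2 and 4 with replicate 2 of NCI-H1650Re, when the share of all genes called was 20.3%, 15.2% and 16.1%. Among those lost, CD82 missed the threshold without either replicate 2 library (limma adjusted p = 0.0652 and 0.065). The heparan sulfate proteoglycan SDC4, the most abundant partner, was at 327 ± 29.6 and 253 ± 24.0 FPKM (limma adjusted p = 0.0238) and missed it with replicate 1 or 2 of NCI-H1650 or replicate 2 of NCI-H1650Re left out (0.0809 to 0.0883) and with quantile normalization (0.0576). CD63, another tetraspanin, was at 214 ± 13.2 and 189 ± 11.4 and did not pass, except with quantile normalization (limma adjusted p = 0.0496).

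**Figure D4:**
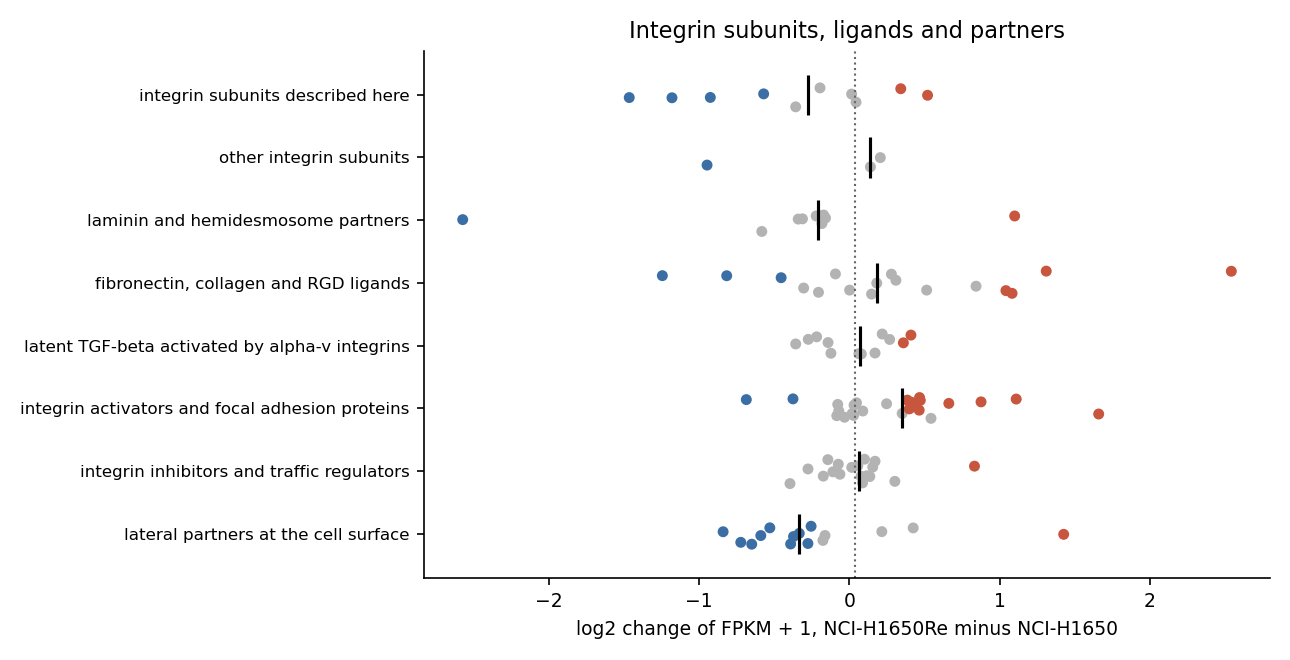
Log2 change of FPKM + 1, NCI-H1650Re minus NCI-H1650, of every tested gene of the integrin subunits and 7 related lists; red and blue points passed the adjusted threshold upward and downward, grey points did not, black bars are list medians and the dotted line is the median of all genes tested (0.03). The focal adhesion proteins have most coloured points on the right and the surface partners on the left.

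The gene whose values over the 6 libraries lay nearest to those of ITGA2, as the root mean square difference of centred log2(FPKM + 1), was UPP1 (0.032), followed by MYC and WNT7B (0.045 each) among 11045 named genes compared. Nearest to ITGB6 were DSC3, a desmosomal cadherin (0.075), MTUS1 (0.084) and SYTL2 (0.115). DSC3 was at 6.73, 5.64 and 4.82 FPKM in NCI-H1650 and at 1.18, 1.38 and 2.13 in NCI-H1650Re. The 6 libraries carry the line difference in all these genes, so the likeness is a description of the profiles.

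Over the whole series, relative depth ran from 0.863 (NCI-H1650 replicate 3) to 1.13 (NCI-H1650 replicate 1), from 165 genes with deposited counts. Of 6 epithelial markers 4 fell, 0 rose and 2 did not pass, where 13.9% of all genes fell and 16.6% rose. EPCAM was at 148 ± 14.0 and 104 ± 10.4 FPKM and the listed 6 summed to 3456 to 4575 FPKM in NCI-H1650 and 3017 to 3041 in NCI-H1650Re, with KRT19 falling the most, from 754 ± 97.5 to 68.7 ± 41.8. KRT8 missed the threshold without either replicate 2 library (limma adjusted p = 0.066 and 0.0611), and KRT7 and KRT18 passed upward without NCI-H1650 replicate 3 (0.0106 and 0.0212). SYP and COL1A1 passed upward without NCI-H1650Re replicate 3 (limma adjusted p = 0.0446 and 0.00206). The neuroendocrine markers CHGA and SYP summed to 1.26 to 2.64 and 4.01 to 6.93 FPKM, with CHGA passing upward. CHGA passed the filter only through NCI-H1650Re, with 5, 14 and 43 deposited counts in NCI-H1650 and 93, 229 and 104 in NCI-H1650Re. The fibroblast markers COL1A1 and COL3A1 summed to 10.1 to 13.0 and 23.0 to 40.1 FPKM, COL3A1 passing upward. The blood markers CD14 and ITGB2 summed to 8.75 to 11.2 and 8.92 to 10.7, CD14 passing downward. CD14 passed the filter only through NCI-H1650, with 46, 68 and 55 deposited counts there and 5, 7 and 10 in NCI-H1650Re. The other listed markers of neuroendocrine cells, fibroblasts, blood and endothelium were not analysed here. The part of any cell mixture in the integrin values was not tested.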

How the data were processed

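The authors deposited FPKM values per gene, 12659 genes in 6 libraries. Read counts were deposited by the authors for 860 genes they marked as regulated. The authors' tables also hold, per the file headers, an FDR (an adjusted p-value) and a log2 fold change for each gene. Tools named by the submitters' processing notes are HISAT2, Bowtie2, RSEM and DESeq2, and the build named is the mouse mm10, although identifiers are human Ensembl; no source used here gives a human build, how the values were filtered, or whether counting used strand. In GENCODE release 29 an antisense or other overlapping transcript shares exonic bases with ITGA5, ITGA6, ITGAV, ITGB1, ITGB6 and ITGB8, whose values are uncertain to that extent.

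Because counts covered few genes, limma 3.58.1 (R 4.3.3) was fitted to log2(FPKM + 1) of the 11764 genes averaging 1 FPKM or more in at least 1 line, with a variance trend and the line as the only term; the Benjamini-Hochberg adjustment ran over all of them. Depth per library was compared through the ratio of counts to FPKM; for FPKM without counts no counting error can be given. Exact permutation tests used scipy 1.17.1 (Python 3.11.15). The 10 subunits and the lists were chosen with earlier results of these data known. The text names all 10 subunits, every other integrin subunit found, and per list up to 5 changed genes with the largest change and up to 3 with the highest level, apart from a gene that is not reported here; the nearest profiles are the 3 named genes with the smallest root mean square difference. Gene positions were matched by Ensembl identifier. Alternatives were a pseudocount of 0.1, testing every gene, requiring 5 FPKM instead, scaling by median of ratios, quantile normalization, no variance trend, a replicate block, each library left out in turn and both replicate 3 libraries left out.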

Additional observations from a re-analysis of the deposited data

How the results depend on the processing

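The 6 subunits called (ITGA2, ITGA3, ITGA6, ITGB5, ITGB6 and ITGB8) kept their direction and passed limma under every alternative in which they were tested; ITGB6 was not tested with a filter at 5 FPKM. The largest adjusted p among them was 0.0413, for ITGA2 without NCI-H1650 replicate 2. With a single library left out, 6 to 7 subunits and 1785 to 4478 of all genes passed. Of all genes, 2386 passed when replicate 1 of NCI-H1650 was left out, 1785 when its replicate 2 was, and 1898 when replicate 2 of NCI-H1650Re was; the cause was not tested. Without both replicate 3 libraries 5080 genes passed. Scalings moved the median of all genes by at most 0.0238 on the log2 scale, and the share of rises among all calls was 49.3% with median-of-ratios scaling against 54.4%. Among the genes reported, changes of sign were limited to ones that did not pass: ITGB1 (-0.013 with median-of-ratios scaling, -0.077 to 0.061 with 1 library left out, among them -0.025, -0.116 without both replicate 3 libraries), ITGB4 (-0.002 with quantile normalization, -0.076 to 0.171 with 1 library left out, among them -0.054) and ACTN4 (-0.010 with median-of-ratios scaling, -0.019 to 0.067 with 1 library left out, among them -0.014); the cause was not tested. Deviations of equal replicate numbers from their line means correlated at 0.173, -0.0369 and 0.211 over 11764 genes. Replicate 2 of NCI-H1650 correlated best with replicate 1 of NCI-H1650Re (0.23), and the replicate 3 libraries correlated best with each other. Deviations from a shared mean are not independent, so these values cannot decide whether equal numbers pair the libraries. With the replicate block 3522 genes and the same 6 subunits passed, LTBP3 passed downward (adjusted p = 0.0225), and 2 of the inhibitors and traffic regulators passed in place of 1. Low level limits ITGB6 most, with 5 counts in NCI-H1650Re replicate 1.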
